A study of Mus musculus with 4 samples.

Results

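The genes described here help to set the electrical recovery of heart muscle cells, and 7 of them were followed across the infarcted mouse heart. They are Kcnj2, Kcnj3, Kcnd2, Kcnip2, Kcnq1, Kcnh2 and Fgf13, taken by gene symbol, and all 7 were found among the 32285 genes counted. In Visium a tissue section lies on an array of barcoded capture spots, and the RNA counted in a spot comes from the several cells that cover it. The data are 4 heart sections, 1 from 1 adult female mouse of the outbred ICR (CD1) stock at each of days 1, 4, 7 and 14 after MI, which was made by tying off the left anterior descending coronary artery for good. All 4 mice had the ligation, under isoflurane with buprenorphine as an analgesic. No uninjured or sham section was analysed here, so every comparison is between places within injured hearts or between days after injury. A day is 1 mouse, and no test between days can be made.

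A heart muscle cell fires when sodium channels open and returns to rest when potassium channels open. Kcnj2 encodes Kir2.1, the inward rectifier that holds the resting potential. Kcnj3 encodes Kir3.1, a subunit of the potassium channel that acetylcholine opens through G proteins. Kcnd2 encodes Kv4.2, the pore of the fast transient outward current, and Kcnip2 encodes KChIP2, the accessory subunit that carries Kv4 channels to the membrane. Kcnq1 and Kcnh2 encode the pores of the slow and rapid delayed rectifier currents. Fgf13 encodes an intracellular fibroblast growth factor homologous factor that binds sodium channels and shifts their inactivation. None of the 7 encodes the pore of a sodium channel, so Fgf13 alone stands for the sodium current here.

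Spots with more than 1% of their UMIs (unique molecular identifiers, 1 for each captured mRNA molecule) in hemoglobin genes were left out, and 7503 of 9102 spots remained. The remaining spots held 11952107, 14350489, 9292678 and 15713779 UMIs on days 1, 4, 7 and 14, with medians of 5188 to 8799 UMIs per spot. The cardiomyocyte genes Myh6 and Myl2 together made 16755 to 21918 of each 1000000 UMIs, so the labelled tissue showed its defining muscle genes. The day 7 section was the shallowest and held the most adipocyte and hemoglobin gene UMIs, 984 and 29352, and 118 of its spots held 10 or more UMIs of fast skeletal muscle genes, against 0 spots on the other days. Each pair of sections shared 1572 to 1918 spot barcodes, because Visium slides print the same barcodes, and these are not shared cells. The GENCODE vM21 annotation on GRCm38 places Kcnj2 at chr11:111066164-111076821, Kcnj3 at chr2:55435970-55598145 and Kcnd2 at chr6:21215503-21729805. Kcnq1 lies at chr7:143106362-143427042, where the antisense transcript Kcnq1ot1 and 3 other annotated genes run on the opposite strand. Whether the counting used strand is not given in the sources used here. Whether Kcnq1 UMIs include reads of an antisense partner was not tested. The same holds for Kcnh2 at chr5:24319589-24351604, with 1 opposite gene, Fgf13 at chrX:59062145-59568071, with 2, and Kcnj3, with 1. Kcnip2 at chr19:45791839-45816061, Kcnd2 and Kcnj2 have none.

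The 250 bases before the RefSeq start sites of Kcnj2, Kcnj3 and Kcnd2 are shown because these 3 genes had the most negative differences of the 7 between spots high and low in stress genes. They are plus-strand sequence of GRCm38.p6 at chr11:111065914-111066163, chr2:55435720-55435969 and chr6:21215096-21215345, and capitals mark the motifs CAGCTG and GGGCGG on either strand.
Kcnj2: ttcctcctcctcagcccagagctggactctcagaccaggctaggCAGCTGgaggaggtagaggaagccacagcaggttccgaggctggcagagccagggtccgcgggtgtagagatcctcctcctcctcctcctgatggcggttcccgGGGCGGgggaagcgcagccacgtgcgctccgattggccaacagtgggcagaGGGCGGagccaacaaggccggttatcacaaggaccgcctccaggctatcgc
Kcnj3: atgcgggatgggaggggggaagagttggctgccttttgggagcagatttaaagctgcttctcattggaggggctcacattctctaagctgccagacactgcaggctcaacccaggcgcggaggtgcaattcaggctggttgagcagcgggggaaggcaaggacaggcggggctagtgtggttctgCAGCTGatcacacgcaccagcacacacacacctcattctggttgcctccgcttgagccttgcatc
Kcnd2: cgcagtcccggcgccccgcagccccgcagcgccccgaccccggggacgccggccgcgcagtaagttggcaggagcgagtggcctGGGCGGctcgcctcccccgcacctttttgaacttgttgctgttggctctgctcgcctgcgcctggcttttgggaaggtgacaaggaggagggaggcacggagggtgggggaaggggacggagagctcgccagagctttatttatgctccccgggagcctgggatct
Kcnj2 and Kcnj3 each hold 1 CAGCTG, the letters of an E box, which 13.0% of 32851 RefSeq promoter windows of this length hold. GGGCGG, a GC box, occurs 2 times before Kcnj2 and 1 time before Kcnd2, and in 32.7% of all windows. Neither TATAAA nor AGATAA, the letters of a TATA box and of a GATA site, occurs in the 3 windows, against 12.4% and 9.99% of all windows. The GC content is 65.6%, 58.4% and 68.8%, above the median window of 52.4%. These matches describe letters and not bound sites. Promoter windows were found for 6 of the 7 genes, and Kcnq1 had none.

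Over whole sections the 7 genes were sparse but measured on every day. Kcnip2 had 4854 UMIs over the 4 sections and at most 7 in any spot, Kcnh2 had 2123, Kcnq1 1610, Fgf13 1523, Kcnj3 1139, Kcnj2 1109 and Kcnd2 824. Levels below are in CPM, the UMIs of a gene per 1000000 UMIs of the same spots, with exact Poisson 95% intervals that cover counting error only. A lower level in a group of spots can mean fewer cells of a type or less RNA per cell, and these cannot be told apart.

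Of the transient outward current genes, Kcnip2 varied between days and was lowest on day 1. It stood at 68.9 CPM (64.2 to 73.7) on day 1, 98.3 (93.2 to 103.6) on day 4, 119.6 (112.6 to 126.8) on day 7 and 96.1 (91.3 to 101.1) on day 14. Days 4 and 14 overlapped, and the ratio of day 7 to day 1 was 1.74 (1.59 to 1.90). Kcnd2, its partner, spanned only 14.6 to 17.4 CPM, and the interval of its highest over its lowest day, 0.963 to 1.47, included 1.

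Kcnh2 ran from 27.4 CPM (24.2 to 31.0) on day 7 to 52.4 (48.9 to 56.1) on day 14. Days 1 and 4 lay between at 43.6 and 36.5, and each step in this order had an interval above 1. Kcnq1 was highest on day 1, at 39.0 CPM (35.5 to 42.7). Days 4, 7 and 14 had 26.3, 32.4 and 29.7, and day 1 exceeded day 4 by 1.48-fold (1.29 to 1.70). Kcnh2 and Kcnq1 thus had their peaks in different sections.

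The 2 inward rectifier genes had their highest CPM levels on days 1 and 14. Kcnj2 stood at 25.6, 17.6, 19.6 and 23.4 CPM on days 1, 4, 7 and 14. Kcnj3 stood at 24.8, 19.6, 16.1 and 26.2 on the same days. The ratio of highest to lowest day was 1.45 (1.23 to 1.72) for Kcnj2 and 1.62 (1.34 to 1.97) for Kcnj3, and on this scale neither gene's days 1 and 14 differed beyond their intervals. Fgf13 was the flattest, between 27.1 and 31.4 CPM, and its highest day exceeded its lowest by 1.16-fold (1.01 to 1.33).

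Sections can differ in how much muscle they hold, so the same UMIs were also set per 10000 UMIs of Myh6 and Myl2, the alpha myosin heavy chain and ventricular light chain of working heart muscle. Kcnip2 then read 36.0, 58.6, 61.0 and 43.8 on days 1, 4, 7 and 14, and day 1 stayed lowest. Kcnh2 read 22.8, 21.8, 14.0 and 23.9, and only day 7 stood apart from its neighbour in the order, day 4, by 1.56-fold (1.34 to 1.82). Kcnq1 read 20.4, 15.7, 16.5 and 13.5, and day 1 exceeded day 14 by 1.51-fold (1.32 to 1.72). Kcnj2 read 13.4, 10.5, 9.99 and 10.7, so that day 1 alone stood high, above day 14 by 1.25-fold (1.07 to 1.46). Kcnj3 read 8.23 on day 7 and 11.7 to 12.9 on the other days. For Kcnd2 and Fgf13 the interval of the highest over the lowest day included 1 on this scale.

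Spots were set apart by 4 genes, taken here as stress genes of heart muscle. They are Ankrd1, Flnc and Xirp2, which act at the Z-disc and in its repair, and Nppb, the B-type natriuretic peptide. Strain itself was not measured. The spots of each section were ranked on the share of UMIs from these 4 genes and cut into 4 bins of like size, Q1 with the lowest share to Q4 with the highest. Their summed level was 426 CPM in Q1 and 13184 CPM in Q4 on day 1, and 323 and 2574 on day 14. These 4 genes made the ranking and are not results.

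In the day 1 section, 6 of the 7 genes were lower in Q4 than in Q1, with intervals of the ratio below 1, and Kcnq1 was not. Kcnip2 stood at 103.7, 111.6, 47.6 and 14.1 CPM in Q1 to Q4. Kcnj3 stood at 42.6, 37.0, 15.3 and 4.70, and Kcnj2 at 40.3, 32.0, 17.4 and 12.9. Kcnd2 kept 19.5, 21.8 and 22.1 over Q1 to Q3 and stood at 2.82 in Q4, on 9 UMIs. Q4 thus held 0.136 (0.0973 to 0.187) of the Q1 level for Kcnip2, 0.110 (0.0600 to 0.189) for Kcnj3, 0.319 (0.218 to 0.459) for Kcnj2 and 0.145 (0.0632 to 0.295) for Kcnd2. Kcnh2 at 0.422 (0.313 to 0.564) and Fgf13 at 0.585 (0.419 to 0.812) were lower by less. Kcnq1 read 37.6, 29.7, 48.7 and 40.8, a ratio of 1.08 (0.836 to 1.41). Myh6 and Myl2 together went from 25274 CPM in Q1 to 9560 in Q4. Per UMI of these 2 genes, only Kcnip2, Kcnj3 and Kcnd2 had an interval below 1. Those of Kcnj2 at 0.844 (0.577 to 1.21) and Kcnh2 at 1.11 (0.826 to 1.49) included 1. Fgf13 at 1.55 (1.11 to 2.15) and Kcnq1 at 2.87 (2.21 to 3.73) were above 1. These readings depended on the muscle reference. Per UMI of Tnnt2, Tnni3 and Actc1, other heart muscle genes, Fgf13 stood below 1 at 0.677 (0.485 to 0.939). On that reference Kcnh2 at 0.488 (0.361 to 0.652) and Kcnj2 at 0.369 (0.253 to 0.531) were also below 1. The interval of Kcnq1, at 1.25 (0.967 to 1.63), included 1. How many of all genes had such intervals was not counted.

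**Figure D1:**
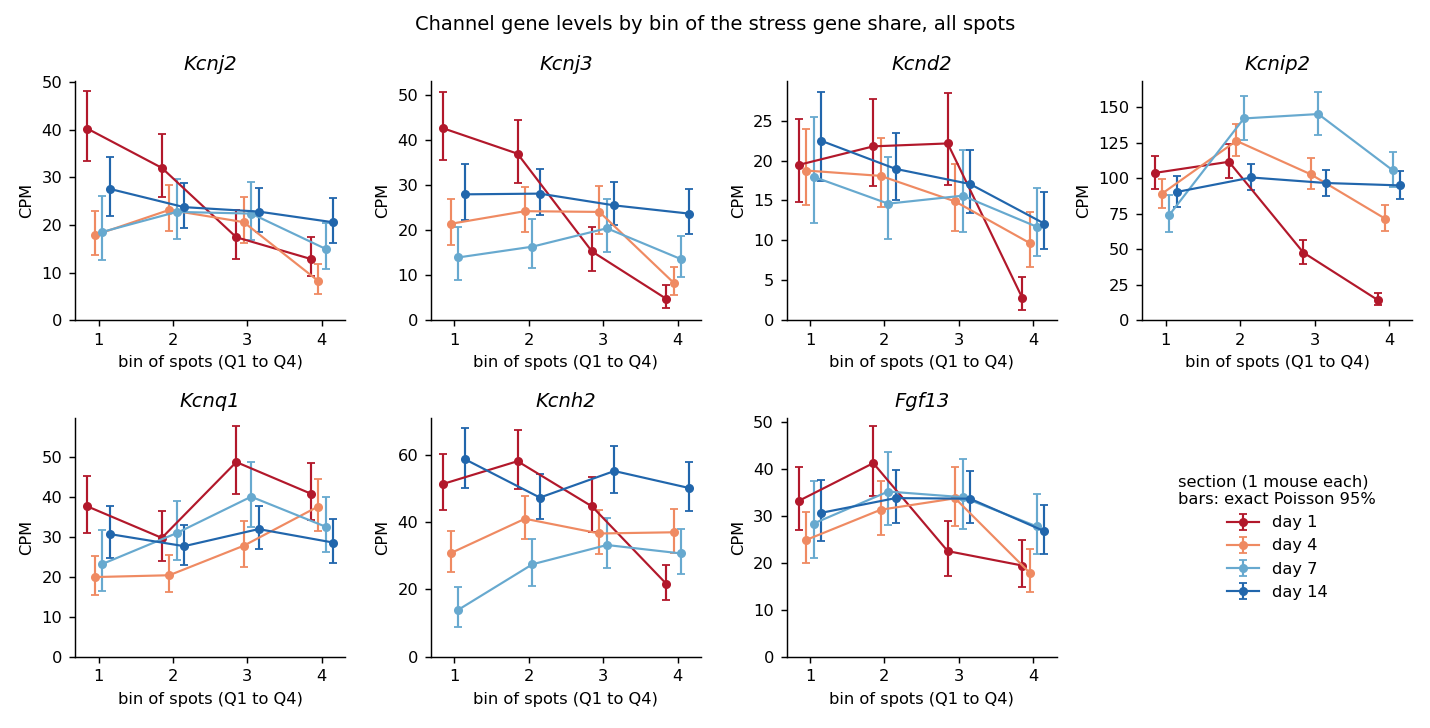
Level of each gene (y axis, CPM) in the bins Q1 to Q4 of spots ranked on the stress gene share (x axis), with 1 coloured line per section and exact Poisson 95% bars. On day 1 (dark red) Kcnip2 went from 103.7 to 14.1 and Kcnj3 from 42.6 to 4.70, and the day 14 lines (dark blue) were nearly level for Kcnip2, at 90.3 to 100.5.

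Finer cuts of the day 1 section, into 10 bins of 189 spots, showed where along the ranking the levels differed. Kcnip2 was between 99.5 and 119.2 CPM in bins 1 to 5, 72.7 in bin 6, 36.4 in bin 7 and 10.6 to 17.9 in bins 8 to 10. Kcnj3 went from 25.5 in bin 6 to 9.34 in bin 7. Kcnd2 was still 22.4 in bin 7, where Kcnip2 and Kcnj3 were already low, and reached 1.51 in bin 10, on 2 UMIs. Kcnq1 was highest in bins 7 and 8, at 51.4 and 53.6, and at 29.5 in bin 10. Myh6 and Myl2 together were 25328 CPM in bin 1, 21547 in bin 6 and 8491 in bin 10, so the muscle reference was lower along the same ranking.

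**Figure D2:**
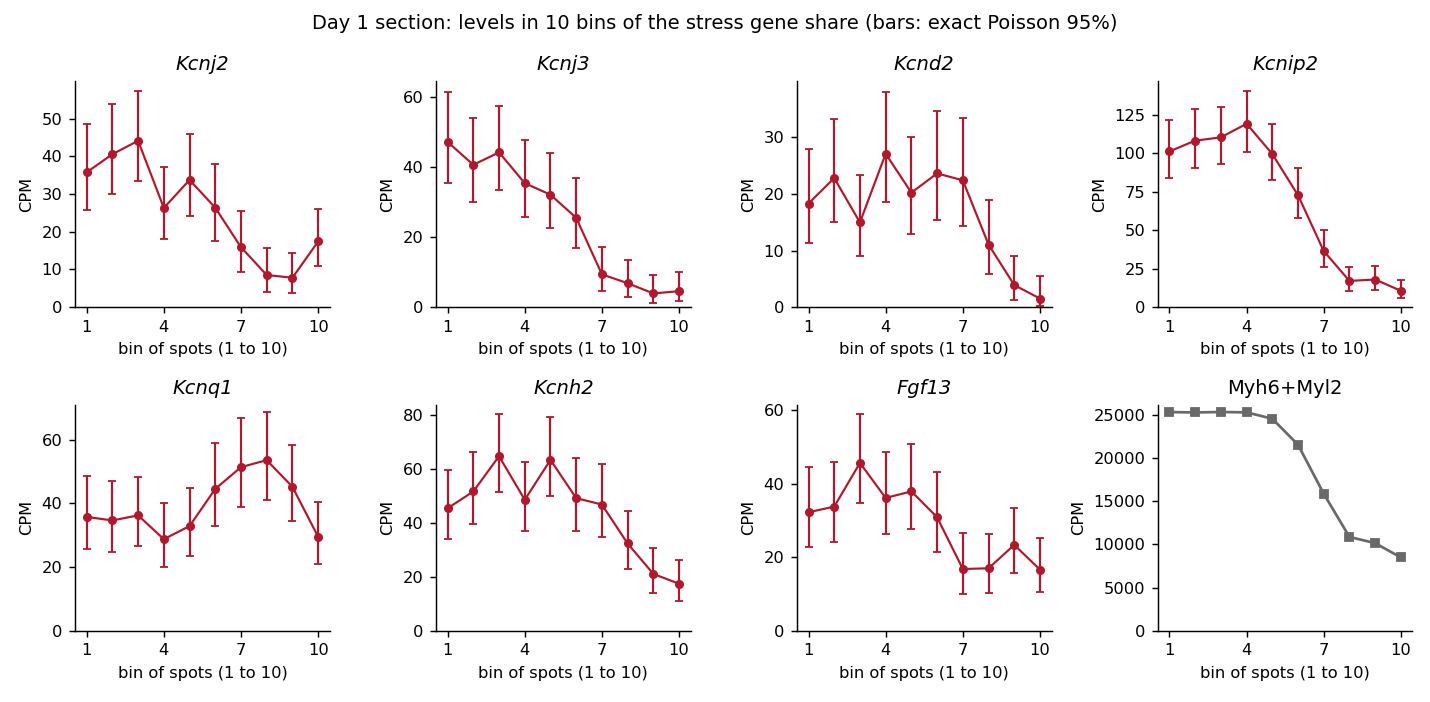
Day 1 section only: level in CPM (y axis) in 10 bins of spots ranked on the stress gene share (x axis), with exact Poisson 95% bars, and Myh6+Myl2 in the last panel. Kcnip2 and Kcnj3 were low from bin 7 on, Kcnd2 from bin 8 on, and Kcnq1 was highest in bin 8, at 53.6.

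The later sections did not share this pattern for every gene. On day 4 the ratio of Q4 to Q1 was 0.386 (0.242 to 0.601) for Kcnj3, 0.462 (0.286 to 0.730) for Kcnj2, 0.516 (0.330 to 0.794) for Kcnd2 and 0.802 (0.676 to 0.951) for Kcnip2. Kcnq1 was higher along the day 4 ranking, at 19.9, 20.4, 27.8 and 37.6 CPM, a ratio of 1.88 (1.40 to 2.56). On day 7 Kcnip2 and Kcnh2 were higher in Q4, by 1.42 (1.15 to 1.77) and 2.21 (1.39 to 3.63). On day 14 only Kcnd2 had an interval that left out 1, at 0.538 (0.362 to 0.793), with 22.5, 19.0, 17.1 and 12.1 CPM in Q1 to Q4.

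Q1 was not the same tissue in each section. Fibroblast and scar genes (Col1a1, Col1a2, Col3a1, Postn, Dcn and Sparc) summed to 1249 CPM in Q1 on day 1 and to 28376 on day 7, where Q4 had 12588. Cardiomyocyte genes summed to 78782 in Q1 on day 1 and to 38958 on day 7. Fast skeletal muscle genes summed to 3.69 CPM in Q1 on day 1 and to 12095 on day 7, where Q4 had 153. Adipocyte genes summed to 71.5 CPM in Q1 on day 1 and to 411 on day 7, where Q4 had 5.48. The part of this difference in tissue in the ratios was not tested. The spots left after dropping the 1 in 4 poorest in Tnnt2, Tnni3 and Actc1 are described separately below.

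Across the 4 sections, UMIs were summed per section and bin, and edgeR's quasi-likelihood test compared Q4 with Q1 with the section as a block. Where edgeR results are given in CPM, the total of each library was also scaled by a TMM factor. Their differences are therefore not ratios of the plain CPM levels. None of the 7 genes passed an adjusted p of 0.05 over all 11617 genes tested, of which 0.826% did. Kcnd2 came nearest, at a log2 difference of −1.23 ± 0.30 (SE) and adjusted p = 0.0842, followed by Kcnj2 at −1.01 ± 0.31 (adjusted p = 0.204). Kcnj3 differed by −1.22 ± 0.47 (adjusted p = 0.37), Kcnip2 by −0.65, Fgf13 by −0.49, Kcnh2 by −0.22 and Kcnq1 by 0.20. Before adjustment 4 of the 7 had p under 0.05, all as lower: Kcnj2, Kcnj3, Kcnd2 and Fgf13. Of all 11617 genes, 1200 had such a p, 612 of them as lower. DESeq2 called 1 of the 7, Kcnd2 (adjusted p = 0.0204), and so did edgeR without the fast skeletal muscle spots of day 7 (adjusted p = 0.048). Without day 1 edgeR also called Kcnd2 (−0.86, adjusted p = 0.00744), and Kcnip2 and Kcnh2 read 0.048 and 0.18. Of all genes, 0.525% were lower under DESeq2, 0.207% without skeletal muscle spots and 3.12% without day 1. With all sections edgeR called 0.31% as lower.

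With the Myh6+Myl2 UMIs of each library in place of its total, again none of the 7 passed, and 0.0689% of 11615 genes did. The differences were −0.88 ± 0.39 for Kcnd2, −0.81 ± 0.33 for Kcnj3, −0.52 for Kcnj2, −0.24 for Kcnip2, −0.025 for Fgf13, 0.34 for Kcnh2 and 0.77 for Kcnq1. On this scale the median of all genes was 0.42, since Myh6 and Myl2 were themselves lower in Q4. Unadjusted p was under 0.05 for Kcnj3 and Kcnd2, both as lower, and DESeq2 called none of the 7. Of all 11615 genes, 823 had such an unadjusted p, 88 of them as lower.

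Spots poor in heart muscle genes were then left out. This dropped 1 in 4 spots of each section, those with the lowest share of Tnnt2, Tnni3 and Actc1. These genes encode cardiac troponins T and I and alpha cardiac actin. The rest, 314 to 391 spots in each section and bin, were ranked again on the 4 stress genes. Among these cardiomyocyte-rich spots, 6 of the 7 genes were lower in Q4 at an adjusted p under 0.05, against 15.1% of 10864 genes lower and 15.5% higher. Kcnq1 was not among them, at −0.027 ± 0.14 (adjusted p = 0.912).

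Kcnd2 had the largest fall, −1.65 ± 0.20 on the log2 scale (edgeR adjusted p = 5.13e-06). It stood at 21.3, 25.9, 23.0 and 22.8 CPM in Q1 of days 1, 4, 7 and 14, and at 5.76, 10.8, 9.95 and 11.9 in Q4. The 2 sets of values did not overlap, though some of their counting intervals did, and each section's ratio had an interval below 1. Kcnip2, the accessory subunit of the same channel, fell by 1.13 ± 0.32 (adjusted p = 0.0234). It went from 106.5 to 20.4 CPM on day 1, from 131.9 to 82.4 on day 4 and from 157.6 to 106.6 on day 7, and on day 14 it stood at 102.4 and 99.4. The Kcnip2 call was lost without day 4 (adjusted p = 0.131) and without day 7 (adjusted p = 0.082). Kcnd2, and not Kcnip2, was thus low on day 14, with ratios of 0.523 (0.346 to 0.779) and 0.971 (0.831 to 1.13).

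Kcnj3 fell by 1.57 ± 0.35 (adjusted p = 0.00522) and Kcnj2 by 1.49 ± 0.28 (adjusted p = 0.00083). Kcnj3 went from 44.0 to 6.15 CPM on day 1, from 25.9 to 9.32 on day 4, from 23.6 to 12.3 on day 7 and from 31.8 to 25.1 on day 14. Kcnj2 went from 40.8 to 8.07, from 19.8 to 7.89, from 23.6 to 13.7 and from 28.8 to 20.8 on the same days. Both genes read lower in Q4 of all 4 sections, with the ratio nearest to 1 on day 14. That ratio was 0.721 (0.521 to 0.995) for Kcnj2 and 0.788 (0.583 to 1.06) for Kcnj3, whose interval included 1. The Q1 and Q4 levels of both genes overlapped between sections. Without day 14 the Kcnj3 difference was −2.19.

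Fgf13 fell by 1.05 ± 0.16 (adjusted p = 4.7e-05). Q1 held 33.3 to 49.3 CPM and Q4 20.1 to 27.8. These values did not overlap between sections, but some of their counting intervals did. The day 14 ratio, 0.772 (0.582 to 1.02), had an interval that included 1. How many of all genes had Q1 and Q4 values apart in this way was not counted. Kcnh2 had the smallest fall of the 6, 0.62 ± 0.15 (adjusted p = 0.00284), from 47.5 to 30.0 on day 1 and by less than its counting interval on days 4, 7 and 14. Kcnq1 went on the plain CPM scale from 33.7 to 54.5 on day 1 and from 24.3 to 40.5 on day 4, with ratios of 1.62 (1.21 to 2.16) and 1.67 (1.24 to 2.26), and stood near 1 on days 7 and 14. Its fitted difference of −0.027 uses TMM scaling. With plain totals it was 0.37 (adjusted p = 0.0477), where the median of all genes moved to 0.43 and the calls for Kcnip2 (adjusted p = 0.061) and Kcnh2 (adjusted p = 0.157) were lost.

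**Figure D3:**
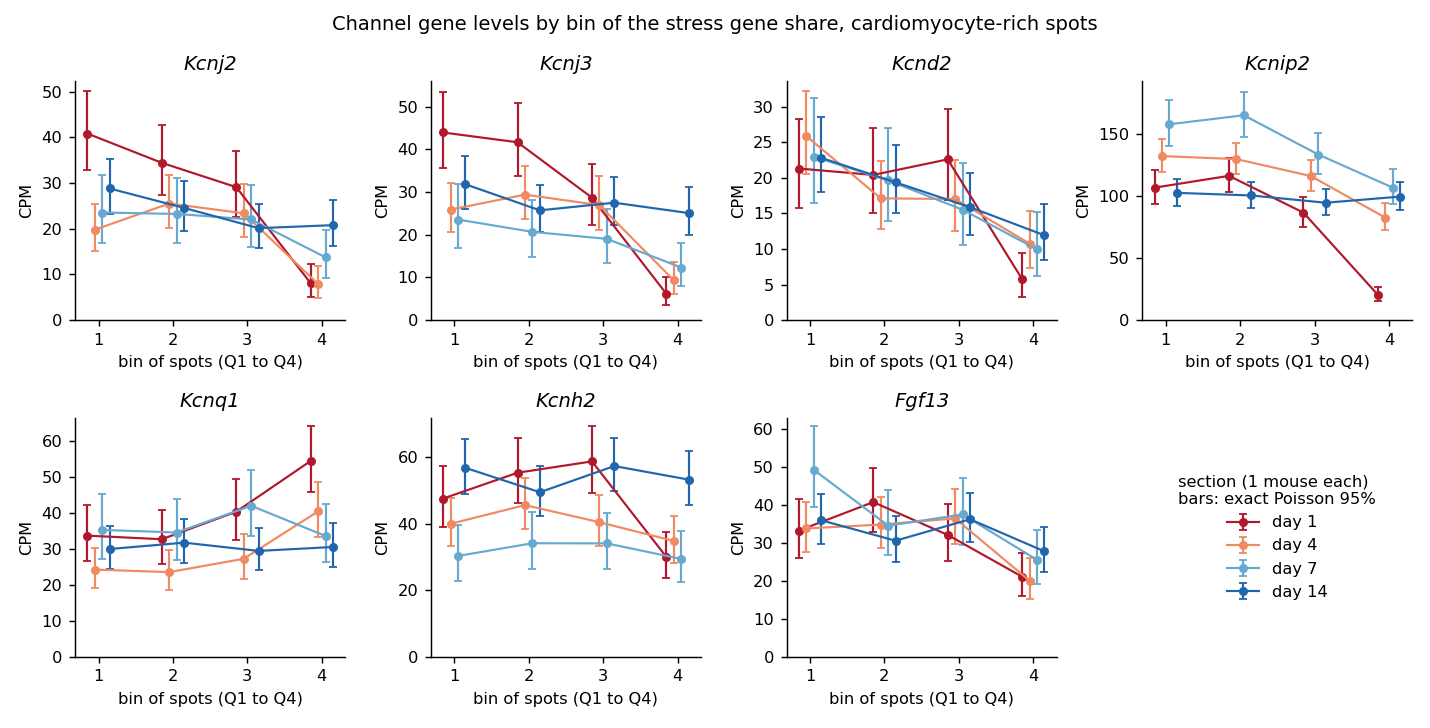
Level of each gene (y axis, CPM) by bin of the stress gene share (x axis) after the spots poorest in cardiomyocyte genes were left out, with 1 line per section and exact Poisson 95% bars. Kcnd2 ended at 5.76 to 11.9 in Q4 of every section, and Kcnq1 ended higher than it began on days 1 and 4.

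Cells other than muscle also moved with this ranking. In Q4 of the cardiomyocyte-rich spots 5 of 6 fibroblast and scar genes and 5 of 5 macrophage genes were higher, and 8 of 9 cardiomyocyte genes were lower, with a median of −0.90. The summed fibroblast genes were 991 to 2089 CPM in Q1 and 1944 to 14505 in Q4, and the macrophage genes 231 to 399 and 319 to 1663. Of the smooth muscle and pericyte genes 3 of 5 were also higher, with a median of 0.73, and the 4 hemoglobin genes tested were all lower, with a median of −0.83. Their sums were 286 to 342 and 389 to 737 CPM in Q1 and Q4 for the first, and 1163 to 3936 and 748 to 2592 for the second. The part of these cells and of blood in the falls was not tested. Myh6 and Myl2 fell by 1.08 and 0.97, more than the median of −0.55 over Tnnt2, Tnni3 and Actc1. On day 1 the last 3 were level, at 21459 and 21042 CPM in Q1 and Q4, while Myh6+Myl2 went from 25555 to 11921. The spots were chosen on the share of these 3 genes, so their evenness can in part come from that choice. In all spots of day 1 they stood at 21066 and 18214 CPM. Set per UMI of these 3 genes, the day 1 ratio was 0.195 (0.142 to 0.263) for Kcnip2, 0.143 (0.0785 to 0.243) for Kcnj3, 0.201 (0.119 to 0.326) for Kcnj2 and 0.276 (0.143 to 0.501) for Kcnd2, and 1.65 (1.24 to 2.21) for Kcnq1. In all spots the ratios in this order were 0.157, 0.128, 0.369 and 0.168, and 1.25 (0.967 to 1.63) for Kcnq1. Kcnh2 on this reference stood at 0.643 (0.474 to 0.869) in cardiomyocyte-rich spots and at 0.488 in all spots of day 1. Fgf13 stood at 0.647 (0.448 to 0.928) and 0.677.

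Per Myh6+Myl2 UMI, 3 of the 7 genes were still lower in Q4 of cardiomyocyte-rich spots, against 0.405% of 10862 genes lower and 84.3% higher. Kcnj3 differed by −0.66 ± 0.25 (edgeR adjusted p = 0.0199), Kcnd2 by −0.64 ± 0.25 (adjusted p = 0.0208) and Kcnj2 by −0.55 ± 0.24 (adjusted p = 0.0367). Kcnq1 was higher, by 1.09 ± 0.27 (adjusted p = 0.00128), which is where the middle of all genes lay, at 1.11. Kcnip2 at −0.17, Fgf13 at −0.034 and Kcnh2 at 0.40 did not pass, and all 6 genes other than Kcnq1 were among the lowest 9.4% of genes on this scale. The 3 calls were not stable to the choice of sections. Without day 1 or without day 7 none of the 3 was called, without day 4 only Kcnd2 was (adjusted p = 0.0243), and without day 14 Kcnj2 and Kcnj3 were and Kcnd2 was not (adjusted p = 0.053).

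The ratios within each section of these cardiomyocyte-rich spots show which days carried these values. Kcnip2 had a ratio per Myh6+Myl2 UMI of 0.410 (0.298 to 0.553) on day 1 and of 1.24 (1.05 to 1.46) on day 4. Kcnj3 at 0.300 (0.165 to 0.511) and Kcnj2 at 0.423 (0.250 to 0.686) had intervals below 1 on day 1 only, and Kcnd2 only on day 14, at 0.555 (0.367 to 0.827). Kcnq1 stood at 3.46 (2.60 to 4.64) on day 1, 3.31 (2.45 to 4.48) on day 4, 1.31 (0.919 to 1.87) on day 7 and 1.08 (0.812 to 1.44) on day 14. Kcnh2 had an interval above 1 on day 4 alone, at 1.73 (1.31 to 2.27). Its intervals on day 1, at 1.35 (0.997 to 1.83), and on day 7, at 1.33 (0.911 to 1.96), included 1. The days were not the same in all spots on this scale. There Kcnj2 had an interval below 1 on day 7 only, at 0.504 (0.310 to 0.828). Kcnd2 had one on days 1, 7 and 14, at 0.383, 0.406 and 0.536. Kcnj3 had one on days 1 and 4, at 0.292 and 0.614.

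**Figure D4:**
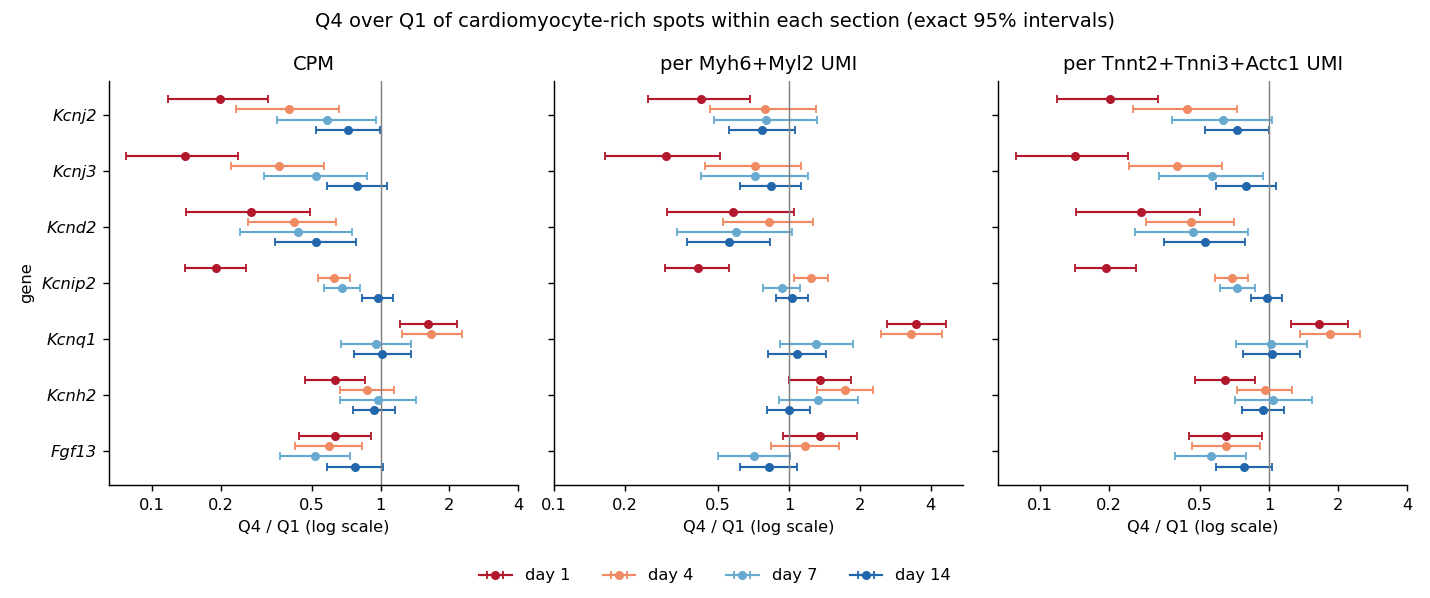
Ratio of Q4 to Q1 of cardiomyocyte-rich spots (x axis, log scale; the grey line is 1) for each gene and section on 3 scales, with exact 95% intervals. In CPM Kcnd2 lay below 1 in all 4 sections, and Kcnq1 lay above 1 on days 1 and 4 on every scale.

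**Figure D5:**
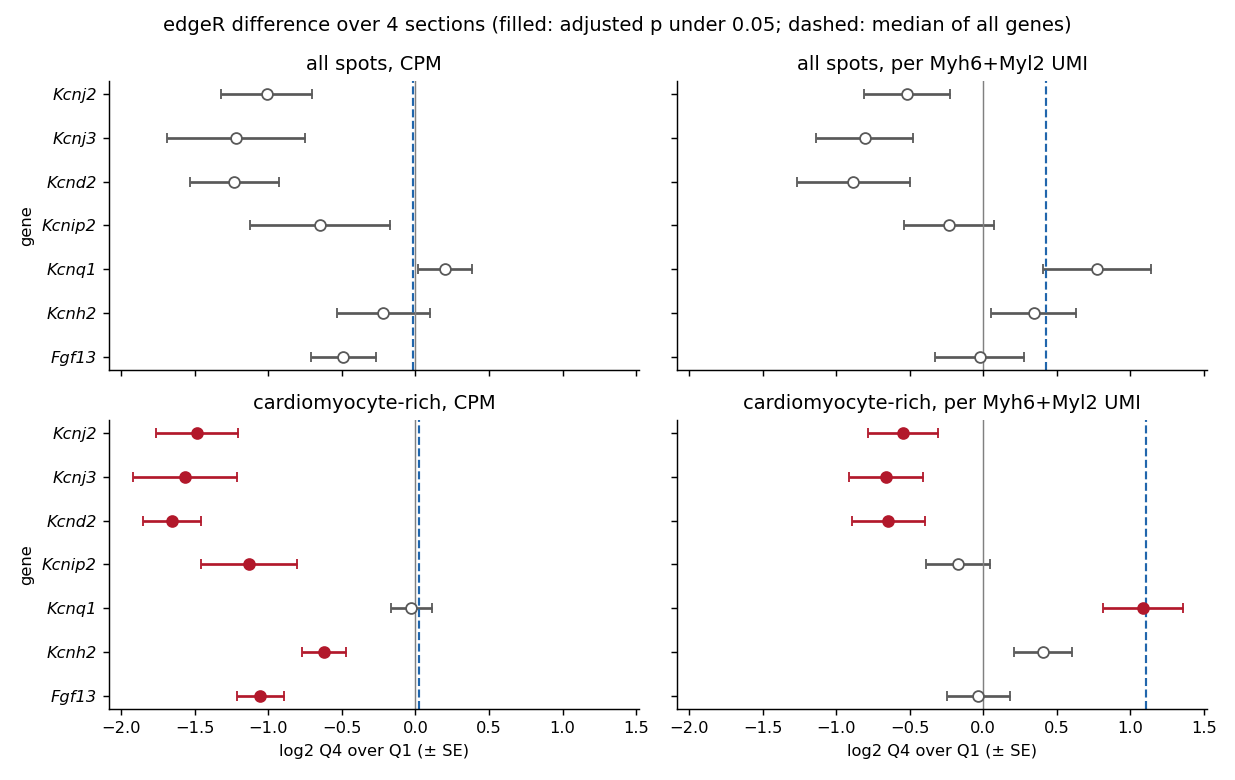
edgeR log2 difference between Q4 and Q1 over 4 sections with its SE (x axis) for each gene, in all spots and in cardiomyocyte-rich spots, in CPM and per Myh6+Myl2 UMI. The panels marked CPM use TMM-scaled totals and not the plain CPM of the other figures. Filled red points passed an adjusted p of 0.05, and the dashed line is the median of all genes, at 1.11 in the last panel beside Kcnq1 at 1.09.

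A wider list of 42 cardiac potassium, sodium and pacemaker channel genes and their regulators had 26 genes tested in all spots. edgeR called 0 of them in CPM, where 3 had an unadjusted p under 0.05, and 0 per Myh6+Myl2 UMI, where again 3 did. Of all genes, 1200 of 11617 and 823 of 11615 had such a p on these 2 scales. DESeq2 called 1 as higher on each scale, and without day 1 edgeR called 2 as higher and 1 as lower in CPM. Of all genes, DESeq2 called 0.878% and 0.517% as higher on the 2 scales. Without day 1 edgeR called 1.96% of all genes as higher and 3.12% as lower in CPM. In cardiomyocyte-rich spots 10 of 24 tested were lower in CPM and 1 was higher, and the median of the 24 was −0.59, against 0.027 for all genes. DESeq2 called 7 lower and 1 higher there. Of all genes, edgeR called 15.1% lower and 15.5% higher in these spots, and DESeq2 called 11.5% and 10.9%. The 3 largest falls called were those of Hcn4 (−1.55), a pacemaker channel, Kcnk3 (−1.08), a background potassium channel, and Kcnn2 (−0.998), a potassium channel opened by calcium. Also lower, and picked out after their values were seen, were Scn4b (−0.87), a sodium channel beta subunit, Kcnj11 (−0.82), the pore of the ATP-sensitive potassium channel, and its sulfonylurea receptors Abcc8 (−0.83) and Abcc9 (−0.92). Kcne4, an accessory subunit of Kcnq1 channels, was the 1 that was higher, at 1.41 (edgeR adjusted p = 0.0142). With a section left out, 21 to 23 of the list could be tested, and Hcn4 and Kcnn2 were then not called whichever section was dropped, nor Kcne4 without day 1, 4 or 7. Kcnk3, Scn4b, Kcnj11, Abcc8 and Abcc9 were called with any section left out. On the Myh6+Myl2 scale 9 of the 24 were higher, where 84.3% of all genes were, and 0 lower by edgeR's adjusted p, and 0 were lower at an unadjusted p under 0.05 or by DESeq2. The median was 0.43 against 1.11 for all genes. Among those higher, Kcne4 differed by 2.57 and Kcnk6, another background potassium channel, by 1.73.

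Spots poor in cardiomyocyte genes show how far each gene's level went with those genes. In the 1 in 10 spots of each section with the lowest share of Tnnt2, Tnni3 and Actc1, Myh6 and Myl2 stood at 26.5% and 41.1% of the level in the other spots on day 1, so muscle RNA was still present there. On the later days they stood at 4.86% to 12.2% and 4.90% to 12.8%. Kcnip2 stood at 18.0% on day 1 and at 1.93% to 5.46% later, and Kcnh2 at 37.5% and then 4.76% to 6.03%. Kcnj3 stood at 9.72% to 16.3% on the 4 days, on 1 or 2 UMIs a section. Kcnd2 stood at 71.3% (32.1 to 138) on day 1 on 9 UMIs, and had 1, 0 and 0 UMIs there on days 4, 7 and 14. Fgf13 stood at 43.4% (20.6 to 80.7) on day 1, had 0 UMIs on day 4 and stood at 16.8% and 10.1% on days 7 and 14, on 4 UMIs and 1 UMI. Kcnq1 stood at 48.7%, 21.9%, 16.3% and 32.1% on days 1, 4, 7 and 14, on 3 to 15 UMIs a section. Kcnj2 stood at 65.0% (34.2 to 113) on day 1, 67.5% (34.4 to 120.2) on day 4 and 108.6% (59.4 to 184) on day 7, on 12 to 15 UMIs a section, and at 27.1% (3.27 to 98.6) on day 14 on 2 UMIs. Its levels on days 4 and 7 were the highest of the 7 genes, with intervals above those of Kcnip2 and Kcnh2. These spots were shallower, with medians of 1188 to 5776 UMIs against 5305 to 9103. On day 7 they can also hold fast skeletal muscle. Fast skeletal muscle genes summed to 12095 CPM in Q1 of all day 7 spots. They summed to 98.7 CPM in Q1 and 159 in Q4 of the cardiomyocyte-rich spots of that day. The part of skeletal muscle in the day 7 levels, that of Kcnj2 among them, was not tested.

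Over the 16 sums of section and bin, Kcnj2 and Kcnj3 varied most alike among the 7, with Pearson r = 0.93 of log2 levels centred within each section. Kcnj3 and Kcnip2 also had r = 0.93. Kcnq1 ran against 5 of the 6 others, from −0.52 with Kcnj2 to −0.21 with Kcnip2, and had 0.22 with Kcnh2. Among all genes of at least 1000 UMIs, those most like Kcnip2 were Asb2 and Dcaf11 (both r = 0.99), and those most like Kcnj3 were Ttll1 and Agtpbp1 (both 0.98). Kcnj2 was most like Aldh6a1 (0.97) and Bckdhb (0.96), which encode enzymes of branched-chain amino acid breakdown. Kcnh2 was most like Ablim1 and Mylk3 (both 0.96), Fgf13 like Perm1 and Ap4s1 (both 0.93), Kcnd2 like Pxmp4 and Gpt (both 0.92) and Kcnq1 like Pgap2 and Tubg1 (both 0.87). The 16 points share sections and the ranking itself, so these correlations describe the libraries and carry no p.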

How the data were processed

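Visium libraries of 4 mouse heart sections were analysed. The authors made the deposited UMI counts per gene and spot with Space Ranger 1.3.0 on mm10, unnormalized and only for spots under tissue, and Seurat 4.1.1 is named in the submitters' processing notes. Depth was 9292678 to 15713779 UMIs per section after spots with over 1% hemoglobin UMIs were left out. The images and spot coordinates were left aside.

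Spots were ranked on the Ankrd1+Flnc+Xirp2+Nppb share within each section and cut into Q1 to Q4. UMIs were summed per section and bin into 16 libraries, since spots of a section are not replicates. edgeR 4.0.16 with limma 3.58.1 in R 4.3.3 fitted robust quasi-likelihood models with TMM factors, the section as a block and bin as a factor, for genes of at least 100 UMIs. Library size was replaced by Myh6+Myl2 UMIs for the second scale. P-values were adjusted by Benjamini-Hochberg over all genes tested, and a gene was called at an adjusted p under 0.05. The sections are 1 mouse each, so a test over them asks what was shared by different days. Standard errors are the log2 difference divided by the root of the F statistic. The script was tested on simulated data. Per-day levels have exact Poisson and ratios exact conditional 95% intervals, for counting error only and with the reference UMIs taken as fixed.

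Named are the 7 genes and the 2 most alike genes per member. The rule also named the 3 largest rises and falls called in all spots in a list of 42 channel genes, where none qualified. In cardiomyocyte-rich spots it was applied afterwards, other genes were added after their values were seen, and 1 result is not reported here. Genes, lists and the cardiomyocyte-rich spots were chosen with earlier results of these data known. Alternatives were DESeq2 1.42.0, other gene and spot filters, rankings and reference genes, and leaving out each section. The alternatives for cardiomyocyte-rich spots were chosen after seeing the data.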

Additional observations from a re-analysis of the deposited data

Results flagged for a closer look

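For 3 genes the ratio of Q4 to Q1 of all spots, in CPM or per Myh6+Myl2 UMI, had an interval below 1 on one day and above 1 on another. With 1 mouse a day, the difference between days was not tested. Kcnip2 in CPM stood at 0.136 (0.0973 to 0.187) on day 1, 0.802 (0.676 to 0.951) on day 4 and 1.42 (1.15 to 1.77) on day 7. With the Myh6+Myl2 reference it stood at 0.360 (0.257 to 0.493) on day 1 and 1.28 (1.08 to 1.51) on day 4. Kcnh2 in CPM stood at 0.422 (0.313 to 0.564) on day 1 and 2.21 (1.39 to 3.63) on day 7. Fgf13 per Myh6+Myl2 UMI stood at 1.55 (1.11 to 2.15) on day 1 and 0.611 (0.421 to 0.893) on day 7. In cardiomyocyte-rich spots Kcnip2 kept a like split per Myh6+Myl2 UMI, at 0.410 on day 1 and 1.24 on day 4. In CPM it did not, with a ratio of 0.676 (0.565 to 0.809) on day 7 and 0.191 on day 1 there. Kcnh2 in CPM and Fgf13 per Myh6+Myl2 UMI had no such split there. Per Tnnt2+Tnni3+Actc1 UMI none of the 3 genes had an interval above 1 on any day, in all spots or in cardiomyocyte-rich spots. In all spots on that scale, Kcnip2 stood at 0.697 (0.588 to 0.827) on day 4 and 0.731 (0.592 to 0.908) on day 7. Fgf13 stood at 0.677 (0.485 to 0.939) on day 1. In cardiomyocyte-rich spots Kcnip2 stood at 0.686 (0.582 to 0.808) on day 4. The splits thus depended on the scale.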

How the results depend on the processing

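Of the 7 genes, none was called in all spots in CPM. DESeq2 and leaving out the fast skeletal muscle spots each called 1, as lower, where 0.525% and 0.207% of all genes were lower. Leaving out the spots richest in collagen called 4, leaving out the spots poorest in Tnnt2+Tnni3+Actc1 called 6 and ranking per Tnnt2+Tnni3+Actc1 UMI called 7. All were lower, where 8.61%, 15.1% and 16% of all genes were lower. Leaving out a section called 0 to 1 (Kcnd2, lower, without day 1, where 3.12% of all genes were lower). With the Myh6+Myl2 reference the count was 0, against 1 for Q4 against Q2 (Kcnq1, higher, as were 60.3% of all genes), 4 without the Tnnt2+Tnni3+Actc1-poor spots (3 of them lower), and 2 (1 lower, and Kcnq1 higher) both without the collagen-rich spots and with ranking per Tnnt2+Tnni3+Actc1 UMI. Of all genes 84.3%, 63.0% and 91.7% were higher and 0.405%, 0.415% and 0.207% lower under these last 3. In cardiomyocyte-rich spots the 6 lower in CPM became 4 to 6 under the alternatives, where 5.61% to 16.7% of all genes were lower. The 4 called per Myh6+Myl2 UMI, 3 of them lower, became 1 to 4 with a section left out and 3 to 5 otherwise. Those counts take both directions together. Under the same alternatives 49.1% to 90.6% of all genes were higher and 0.185% to 4.39% lower. The cause of these changes in count was not tested. Kcnd2 could not be fitted at the minimum of 1000 UMIs. 2 of 140 alternative levels per day lay outside their intervals, both with the Tnnt2+Tnni3+Actc1 reference. Q1 and Q4 were compared within sections through the section as a block, and without that block 0 of the 7 were called on either scale in all spots.

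Signs turned for genes whose difference was not called. In CPM in all spots, Kcnq1 read −0.027 without the Tnnt2+Tnni3+Actc1-poor spots, −0.050 without the collagen-rich spots and −0.43 (adjusted p = 0.0409) ranked per Tnnt2+Tnni3+Actc1 UMI, and with a section left out Kcnip2 (−0.65 with all 4) ranged from −1.03 to 0.048 and Kcnh2 from −0.54 to 0.18. Set on Myh6+Myl2 UMIs, Fgf13 read 0.059 against Q2, 0.023 without the hemoglobin filter, 0.024 without skeletal muscle spots, 0.083 ranked per Tnnt2+Tnni3+Actc1 UMI, 0.18 ranked without Ankrd1, 0.021 without Xirp2 and 0.058 without Nppb. On that scale Kcnj2 (−0.52) read 0.15 ranked per Tnnt2+Tnni3+Actc1 UMI, Kcnh2 (0.34) −0.25 with that reference, and with a section left out Kcnip2 ranged from −0.46 to 0.089 and Fgf13 from −0.24 to 0.22. In cardiomyocyte-rich spots in CPM, Kcnq1 read 0.041 with Ckm+Mb+Pln choosing the spots, 0.37 with total UMIs, 0.028 against Q2 and −0.14 to 0.11 with a section left out. Per Myh6+Myl2 UMI there, Kcnh2 read −0.17 with the Tnnt2+Tnni3+Actc1 reference, and with a section left out Kcnip2 ranged from −0.36 to 0.087 and Fgf13 from −0.19 to 0.12.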
